A study of Mus musculus with 2 samples.

Results

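The genes described here are 9 genes of the neuronal microtubule cytoskeleton, Tubb3, Tubb2a, Tubb2b, Map1b, Mapt, Dcx, Stmn1, Stmn2 and Stmn3, in single cells of the developing mouse pancreas. They and the gene lists used below were chosen by name with earlier results of these data known. Counts of calls among them are therefore descriptions and give no test of the set. All 9 genes had a row in both count tables, among 25507 gene rows. Microtubules are polymers of alpha- and beta-tubulin dimers, which grow and shrink at their ends and carry vesicles and organelles through the cell. Neurons build stable microtubules in their processes from particular tubulin isotypes together with microtubule-associated proteins, while stathmins bind free tubulin dimers and favour depolymerisation. Endocrine cells of the pancreas share many genes with neurons, and in insulin-producing cells microtubules are known to take part in the transport and release of secretory granules.

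The cells came from wild-type mouse embryos at E14.5, given in days of gestation, when Neurog3, a transcription factor required for endocrine fate, is transiently on in progenitors that leave the duct-like epithelium. Per the labels, cells were sorted by flow cytometry as Ngn3eGFP low and high, a reporter of Neurog3, and encapsulated on the inDrop droplet platform with linear amplification of the RNA by CEL-Seq. The 2 libraries, called library 1 and library 2, are 2 samples of 1 group, with no treatment and no mutant. Whether they are separate litters or sorts is not in the labels. The main fits take out the difference between libraries that all groups share. Their p-values rest only on how group levels still vary between these 2 libraries, and that spread is estimated with information shared across genes.

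Before filtering, the libraries held 1910588 and 3425983 UMIs (unique molecular identifiers, each counted as 1 captured RNA molecule) and shared 3 cell barcodes. After filtering, 515 cells of library 1 and 1070 cells of library 2 remained, 1585 in all. Cells were grouped by raw UMIs of marker genes, and comparisons were made over the summed counts of a group in each library. The groups, ordered by endocrine differentiation, began with Spp1 cells (105 in library 1 and 209 in library 2), named for a duct-epithelial gene. Next came Neurog3 cells (113 and 180) and Neurog3/Chgb cells that held both markers (10 and 16). Chgb cells (92 and 146) held RNA of the granule protein chromogranin B, with insulin and glucagon RNA under the thresholds of the hormone groups. Other hormones were not part of the grouping. Ins cells (45 and 111) held insulin RNA and Gcg cells (29 and 57) held glucagon RNA. These 6 groups held 1113 cells. The sort sets how many cells each group has, so group sizes are not results. Macrophage cells (7 and 57) and acinar cells (16 and 93) stood outside the endocrine path, and 297 cells met no marker rule. Sox9, a duct-epithelial transcription factor that the rule did not use, lay at 771 and 1064 CPM in Spp1 cells and at 63.1 and 91.6 CPM in Ins cells. A level is given throughout as CPM, counts per 1000000 UMIs of the group in that library. UMIs mark tags at the 3' end, so these levels do not scale with gene length.

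The genes are called neuronal for where they are best known, and the labels name pancreas. The 13 markers of neurons and neural crest (among them Sox10, Th and Prph) summed to between 116 and 224 CPM in the 6 groups. Leaving out every cell with 3 or more UMIs of that list left each of the 48 tests on these genes on the same side of the threshold.

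Of the 9 genes, Map1b had the most UMIs (545 in library 1 and 1016 in library 2), followed by Stmn1 (423 and 824), Tubb2a (240 and 353), Tubb3 (201 and 313), Dcx (155 and 298), Mapt (114 and 235) and Tubb2b (109 and 156). Stmn2 had 63 and 99, and Stmn3 had 7 and 14. Stmn3 was the only member that did not pass the filter on low counts, so 8 members were tested. Per the GENCODE annotation of the mouse build GRCm38, all 9 are protein-coding: Tubb3 on chromosome 8 (chr8:123411424-123422015, plus strand), Tubb2a and Tubb2b next to each other on chromosome 13 (chr13:34074274-34078007 and chr13:34126748-34130466, minus strand), Map1b further along chromosome 13 (chr13:99421446-99516540, minus strand), Mapt on chromosome 11 (chr11:104231390-104332090, plus strand), Dcx on chromosome X (chrX:143855842-143933311, minus strand), Stmn1 on chromosome 4 (chr4:134468320-134473843, plus strand), Stmn2 on chromosome 3 (chr3:8509360-8561606, plus strand) and Stmn3 on chromosome 2 (chr2:181306459-181314500, minus strand). Tubb2a and Tubb2b are paralogs whose coding sequences are 96.5% identical over 1335 bases. Their last 300 transcript bases, where 3' tags fall, are 47.1% identical. An exon of Stmn1 overlaps the annotated gene Gm23634 on the same strand, so its reads could in part be that gene's.

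Promoter sequence is shown for Tubb3 and Map1b, the members that were higher together in Neurog3 cells, and for Tubb2a, a tubulin that was higher in Ins cells. Each runs from 250 bases before to 50 bases after the RefSeq start site on GRCm38.p6, 5' to 3' on the gene's strand, and 5 of the 9 members had an entry. Capitals mark matches, on either strand, to CAGATG or CAGCTG, E-boxes of the kind that proneural factors of the Neurog and Neurod families bind, and to CAGCACC, a part of the element bound by REST, a repressor of neuronal genes. The windows are chr8:123411303-123411602 (plus strand) for Tubb3, chr13:99516553-99516852 (minus strand) for Map1b and chr13:34077959-34078258 (minus strand) for Tubb2a.
Tubb3: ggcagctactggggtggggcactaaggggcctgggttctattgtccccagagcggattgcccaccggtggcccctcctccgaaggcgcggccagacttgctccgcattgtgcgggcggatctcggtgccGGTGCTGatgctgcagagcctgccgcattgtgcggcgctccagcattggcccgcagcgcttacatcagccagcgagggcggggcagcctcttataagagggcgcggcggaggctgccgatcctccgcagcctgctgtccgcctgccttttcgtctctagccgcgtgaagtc
Map1b: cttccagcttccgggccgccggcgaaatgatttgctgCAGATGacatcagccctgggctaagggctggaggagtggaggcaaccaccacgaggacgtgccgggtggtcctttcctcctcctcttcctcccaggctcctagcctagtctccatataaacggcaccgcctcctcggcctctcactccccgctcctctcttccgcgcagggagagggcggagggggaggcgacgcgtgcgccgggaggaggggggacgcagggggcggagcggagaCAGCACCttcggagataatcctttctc
Tubb2a: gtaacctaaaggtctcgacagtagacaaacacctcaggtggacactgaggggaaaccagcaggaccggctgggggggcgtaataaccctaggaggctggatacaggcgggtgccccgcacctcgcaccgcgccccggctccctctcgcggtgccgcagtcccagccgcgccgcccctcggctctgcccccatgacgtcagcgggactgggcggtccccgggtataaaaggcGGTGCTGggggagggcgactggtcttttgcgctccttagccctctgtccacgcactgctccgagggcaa

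The Map1b window held CAGATG, starting at -213 from the start site, and CAGCACC at +24. The Tubb3 window held CAGCACC at -121 (as its reverse, GGTGCTG) and the Tubb2a window held it at -19 (also reversed). Of 32851 mouse promoter windows of the same length, 17.2% held CAGATG, 16.3% held CAGCTG and 7.14% held CAGCACC. The window of Stmn3 held CAGATG, and both windows of Dcx held none of the letters searched. These are matches of letters and no measure of binding.

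**Figure D1:**
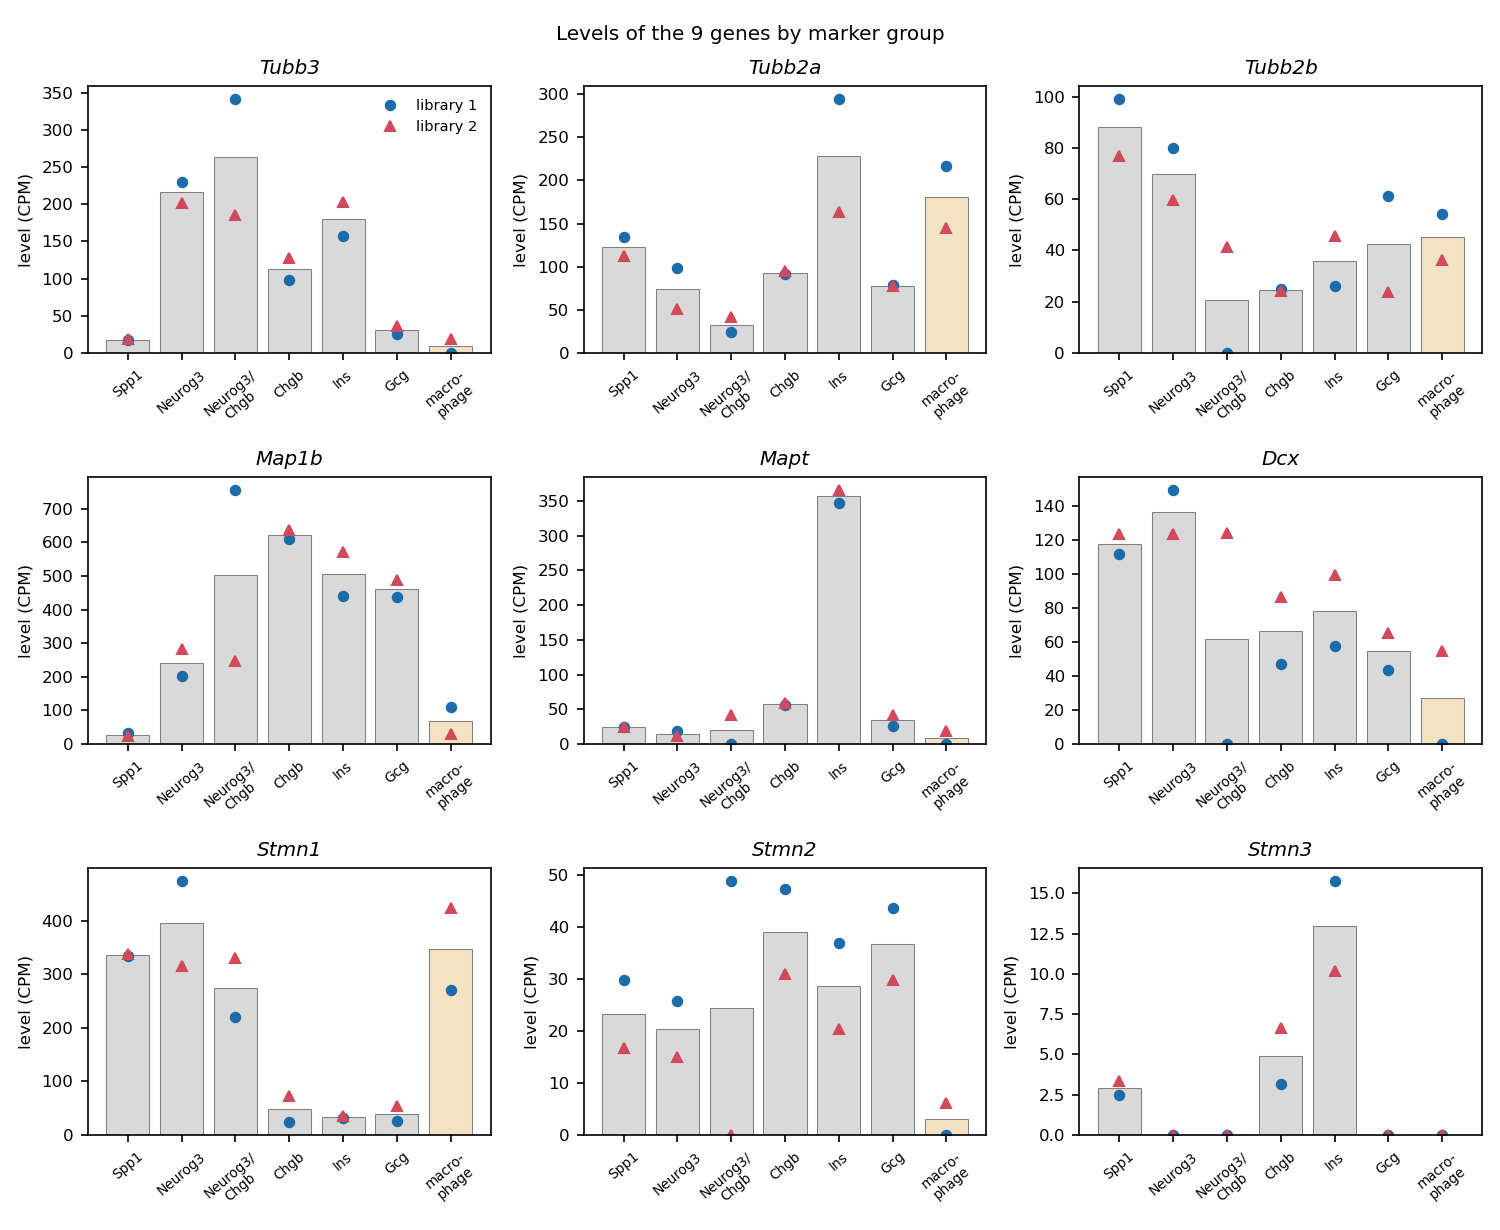
Level of each of the 9 genes (CPM, linear axis from 0) in the marker groups, in the order of differentiation, with macrophage cells at the right. Points are the libraries and bars their mean. Tubb3 peaks around the Neurog3 stage, Map1b from the Chgb stage on, and Mapt in Ins cells, while Stmn1 is high in Spp1 and Neurog3 cells and low in Chgb, Ins and Gcg cells.

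The first comparison asks which of these genes differ between Neurog3 cells and the Spp1 cells. Tubb3, the beta-tubulin isotype used as a marker of new neurons, and Map1b, a microtubule-associated protein of growing axons, were higher in Neurog3 cells. Tubb3 had 230 and 202 CPM in Neurog3 cells, against 17.4 and 18.4 CPM in Spp1 cells. The groups lay far apart in both libraries, and the log2 fold change was 3.56 ± 0.34 (SE, adjusted p = 2.57e-11, edgeR quasi-likelihood test with Benjamini-Hochberg adjustment over all 11044 genes tested). Map1b had 201 and 282 CPM in Neurog3 cells, against 32.2 and 23.4 CPM in Spp1 cells, and its log2 fold change was 3.15 ± 0.27 (SE), with an edgeR adjusted p of 5.63e-13.

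These were 2 of the 8 tested members, and none was lower. Over all genes tested, 7.42% were called, 3.95% higher and 3.47% lower. The median log2 fold change was 0.01 over the 8 members and -0.04 over all genes. The other 6 members did not pass. Stmn1, the widely expressed stathmin of dividing cells, had 475 and 316 CPM in Neurog3 cells and 335 and 338 CPM in Spp1 cells, a log2 difference of 0.21 with an approximate 95% interval of -0.22 to 0.65. Dcx, doublecortin, which stabilises microtubules in migrating neurons, had 150 and 123 CPM in Neurog3 cells and 112 and 124 CPM in Spp1 cells, with an interval of -0.34 to 0.75. Both groups therefore carried these 2 genes at levels that overlapped.

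Tubb2a and Tubb2b are class II beta-tubulins of neurons. Tubb2a had 98.1 and 50.5 CPM in Neurog3 cells and 134 and 112 CPM in Spp1 cells (log2 fold change -0.79, edgeR adjusted p = 0.103). Tubb2b had 80.0 and 59.8 CPM in Neurog3 cells and 99.2 and 77.0 CPM in Spp1 cells (edgeR adjusted p = 0.688). Both stood lower in Neurog3 cells in each library without passing the test. Tubb2a passed with marker thresholds set per 3000 UMIs of the cell (edgeR adjusted p = 0.0461), and Tubb2b passed with doubled thresholds (log2 fold change -1.38, edgeR adjusted p = 0.0166).

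Mapt, which encodes tau, an axonal microtubule-associated protein, had 18.1 and 11.2 CPM in Neurog3 cells and 24.8 and 25.1 CPM in Spp1 cells. These rest on 7 and 6 UMIs against 10 and 15, and the difference did not pass (edgeR adjusted p = 0.438). Stmn2, a membrane-bound stathmin of growing neurites, had 25.8 and 15 CPM against 29.8 and 16.7 CPM (edgeR adjusted p = 0.921).

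**Figure D2:**
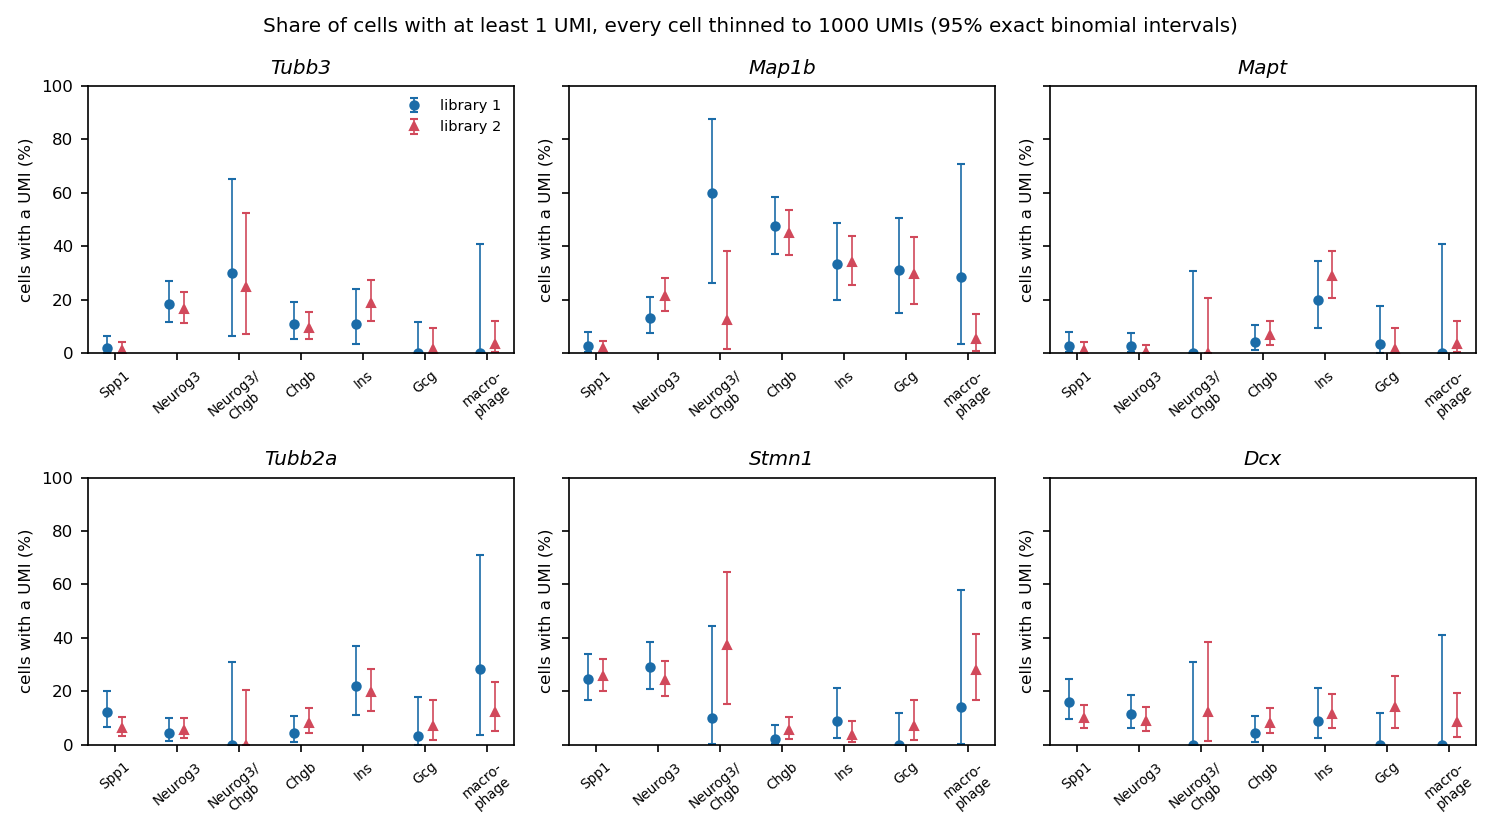
Share of cells with at least 1 UMI of 6 of the genes after every cell was thinned to 1000 UMIs (percent, linear axis from 0 to 100). Points are the libraries and bars their 95% exact binomial intervals, which cover counting error only. Tubb3 is found in 18.6% and 16.7% of Neurog3 cells and Mapt in 20% and 28.8% of Ins cells, against 0 of 7 and 3.51% of macrophage cells for either gene.

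For Tubb3 and Map1b the shares of cells with a UMI were taken as well. In cells thinned to 1000 UMIs each, a Tubb3 UMI was found in 18.6% (95% exact binomial interval 11.9% to 27.0%) of Neurog3 cells in library 1 and in 16.7% (11.5% to 22.9%) in library 2, against 1.90% and 1.44% of Spp1 cells. Without thinning the shares were 41.6% and 33.3% of Neurog3 cells, against 5.71% and 4.31% of Spp1 cells. Macrophages, which should lack Tubb3, gave 0 of 7 and 2 of 57 thinned cells (3.51%), at a median depth of 2724 and 2870 UMIs beside 2922 and 2767 in Neurog3 cells and 3690 and 2672 in Spp1 cells. The Tubb3 share in Spp1 cells was thus not above that background. Map1b was found in 13.3% and 21.7% of thinned Neurog3 cells, against 2.86% and 1.91% of Spp1 cells, beside 2 of 7 and 3 of 57 macrophages. The 7 macrophages of library 1 bound the Map1b background only to between 3.67% and 71.0%, while in library 2 Neurog3 cells lay above it.

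Within the Neurog3 cells, Tubb3 was higher in cells with more Neurog3 UMIs. Its level was 168 and 156 CPM in cells with 3 to 7 Neurog3 UMIs, 178 and 226 CPM in those with 8 to 15, and 489 and 276 CPM in those with 16 or more (17 and 26 cells). Median depth differed along these bins too, at 2608, 3742 and 3683 UMIs in library 1 and 2479, 2783.5 and 4008.5 UMIs in library 2, and its part in the order was not tested. Map1b went the same way in library 2 (202, 351 and 364 CPM), while library 1 gave 162, 254 and 173 CPM. Stmn1 stayed high in every bin, from 269 to 533 CPM. Tubb2b lay at 118 and 85.7 CPM in the lowest bin and at 86.4 and 19.7 CPM in the highest, on 6 and 2 UMIs there.

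Spp1 cells with 1 or 2 Neurog3 UMIs, just under the threshold of 3, had Tubb3 at 10.5 and 49.2 CPM, against 19.5 and 6.89 CPM in Spp1 cells with none. The libraries gave opposite orders on 8 or fewer UMIs each. In the same cells Map1b had 31.6 and 6.15 CPM, against 32.4 and 29.9 CPM.

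**Figure D3:**
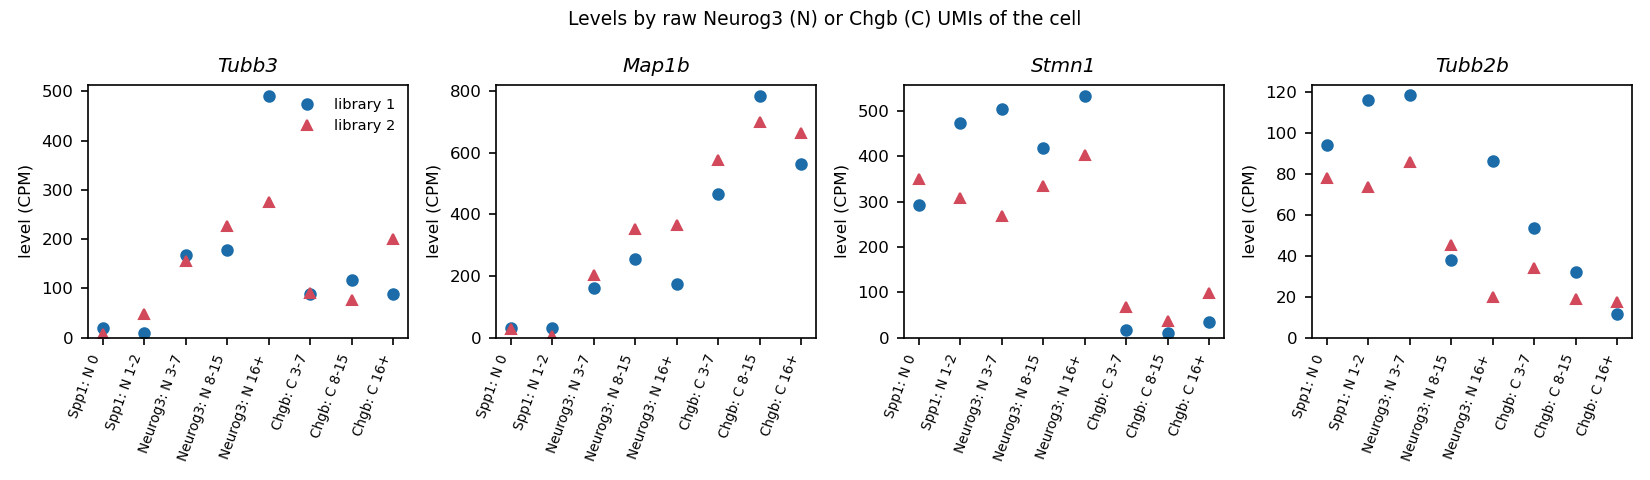
Level (CPM, linear axis from 0) of Tubb3, Map1b, Stmn1 and Tubb2b in cells binned by their raw Neurog3 UMIs (N, in Spp1 and Neurog3 cells) or Chgb UMIs (C, in Chgb cells). Points are the libraries. Stmn1 is at or above 269 CPM in every Neurog3 bin and at or below 99.7 CPM in every Chgb bin.

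Cells with the markers of both stages were few, 10 and 16, and entered no test. Tubb3 had 342 and 186 CPM in them, from 14 and 9 UMIs. Map1b had 757 and 248 CPM, and in library 1 a single cell gave 9 of its 31 UMIs. Stmn1 had 220 and 331 CPM, above both of its values in Chgb cells. Dcx, Tubb2b and Mapt had no UMI in these cells of library 1, out of 40963 UMIs in all, and had 124, 41.3 and 41.3 CPM in library 2.

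The second comparison set Chgb cells against Neurog3 cells, and here 6 of the 8 tested members changed. Map1b and Mapt were higher in Chgb cells, and Stmn1, Tubb2b, Dcx and Tubb3 were lower. Over all genes tested, 4.49% were called higher and 5.89% lower, 10.4% in either direction. The median log2 fold change was -0.32 over the 8 members and 0.01 over all genes. This comparison shares the Neurog3 cells with the first, and its values are not independent of it.

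Stmn1 had the largest change of the 8. It had 25.2 and 73.0 CPM in Chgb cells, against 475 and 316 CPM in Neurog3 cells (log2 fold change -2.97 ± 0.29 SE, edgeR adjusted p = 2.77e-11). Both libraries showed the drop, which was -4.19 on the log2 scale in library 1 and -2.10 in library 2. In thinned cells a Stmn1 UMI was found in 2.17% and 5.48% of Chgb cells, against 29.2% and 24.4% of Neurog3 cells. Macrophages carried Stmn1 themselves, at 272 and 424 CPM, and give no background for it. The low level held across Chgb UMIs, with 17.9 and 68.3 CPM in cells with 3 to 7 Chgb UMIs and 35.5 and 99.7 CPM in those with 16 or more. Among Neurog3 cells, those with 1 or 2 Chgb UMIs (12 and 15 cells) had Stmn1 at 212 and 318 CPM, against 515 and 316 CPM in those with none.

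Map1b had 610 and 637 CPM in Chgb cells, against 201 and 282 CPM in Neurog3 cells (log2 fold change 1.30 ± 0.18 SE, edgeR adjusted p = 4.32e-07). A Map1b UMI was found in 47.8% and 45.2% of thinned Chgb cells and in 75.0% and 74.7% without thinning, the highest thinned shares of any of the 8 tested members in the 5 tested groups. Mapt had 56.6 and 59.7 CPM in Chgb cells, against 18.1 and 11.2 CPM in Neurog3 cells (log2 fold change 1.95 ± 0.45 SE, edgeR adjusted p = 0.00156). The Mapt call was lost after thinning (log2 fold change 2.17, edgeR adjusted p = 0.0604). Its thinned share was 4.35% and 6.85% of Chgb cells, against 2.65% and 0.556% of Neurog3 cells and 0 of 7 and 3.51% of macrophages, so Mapt in Neurog3 cells was not above background.

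Tubb3 had 97.5 and 128 CPM in Chgb cells, against 230 and 202 CPM in Neurog3 cells (log2 fold change -0.98 ± 0.26 SE, edgeR adjusted p = 0.00788). Even so, Chgb cells stayed far above the Spp1 level of 17.4 and 18.4 CPM. Dcx had 47.2 and 86.3 CPM in Chgb cells, against 150 and 123 CPM in Neurog3 cells (log2 fold change -1.07 ± 0.31 SE, edgeR adjusted p = 0.0164). Tubb2b had 25.2 and 24.3 CPM in Chgb cells, against 80.0 and 59.8 CPM in Neurog3 cells (log2 fold change -1.52 ± 0.43 SE, edgeR adjusted p = 0.0118).

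These 3 falls were less firm than that of Stmn1. Library 2 alone gave -0.65 for Tubb3 and -0.51 for Dcx, and library 1 alone gave -1.23 and -1.65. With DESeq2 in place of edgeR the adjusted p was 0.0963 for Tubb3, 0.122 for Dcx and 0.105 for Tubb2b, with the same direction. After thinning, the edgeR adjusted p was 0.118 for Tubb3 and 0.511 for Dcx. Leaving out cycling cells from every group ended the calls of Tubb2b (log2 fold change -1.07, edgeR adjusted p = 0.191) and Dcx (-0.98, adjusted p = 0.0573). Cycling cells made up 23.9% and 12.3% of Chgb cells, against 23.0% and 15.6% of Neurog3 cells. Tubb2b also lost its call with doubled thresholds (edgeR adjusted p = 0.194) and with thresholds per 3000 UMIs (0.0537).

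Tubb2a had 91.2 and 95.1 CPM in Chgb cells and 98.1 and 50.5 CPM in Neurog3 cells, with the libraries on opposite sides (edgeR adjusted p = 0.595). Stmn2 had 47.2 and 31.0 CPM against 25.8 and 15 CPM, higher in both libraries but not past the test (log2 fold change 0.88, edgeR adjusted p = 0.326).

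**Figure D4:**
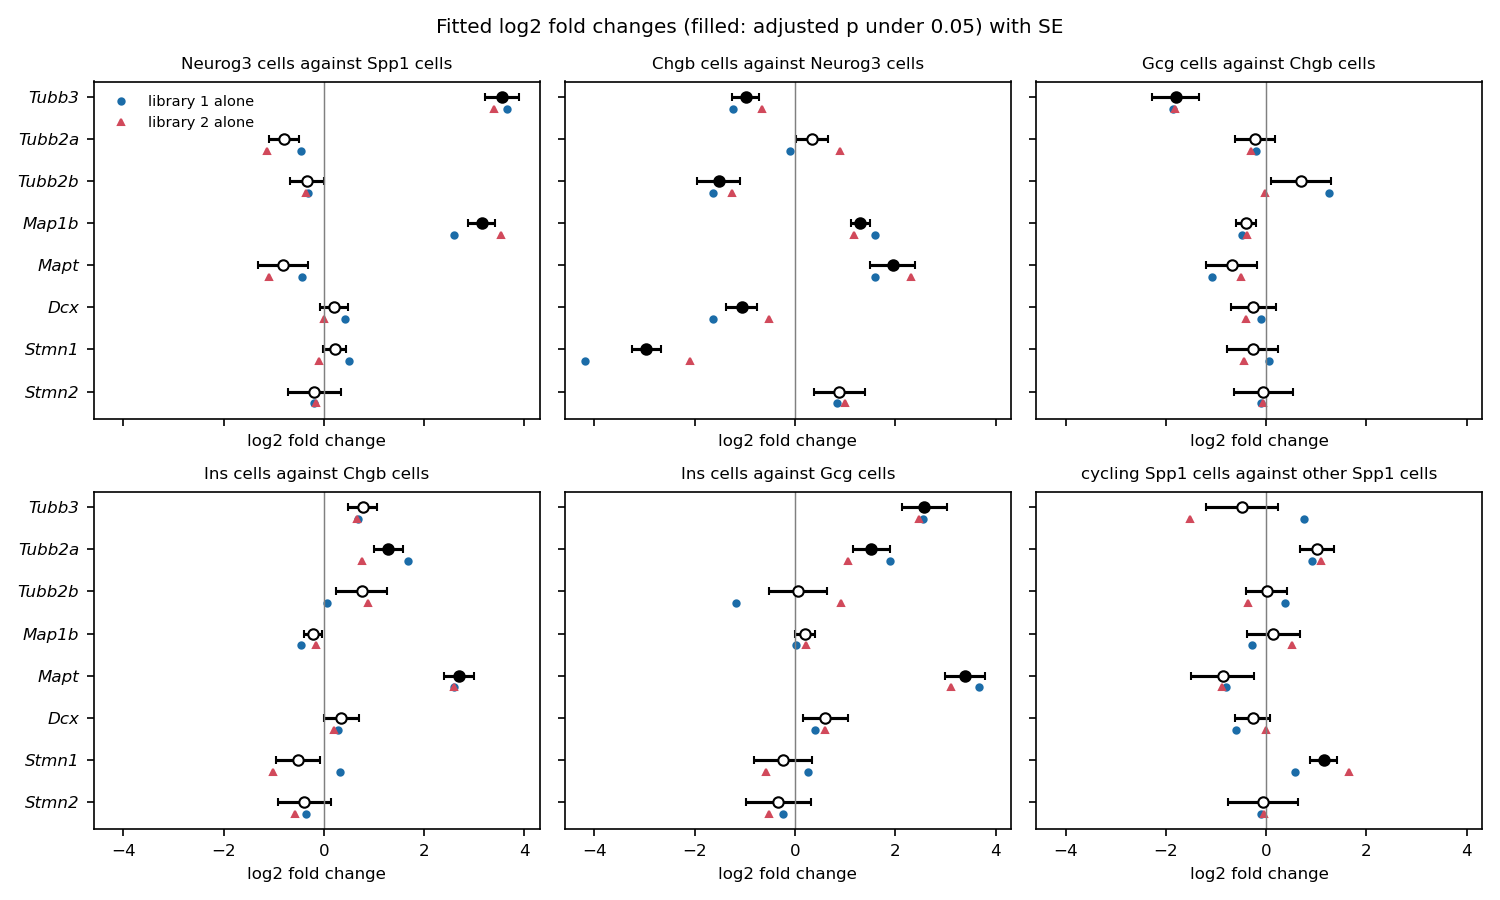
Log2 fold changes of the 8 tested genes in the 6 comparisons, with the group named first over the group named second, so values right of 0 are higher in the group named first. Black symbols are the fitted values with their SE (filled where the edgeR adjusted p is under 0.05), and coloured symbols are the libraries alone. Stmn1 lies at -2.97 in Chgb cells against Neurog3 cells, and Mapt reaches 3.39 in Ins cells against Gcg cells.

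The next 3 comparisons ask how Ins and Gcg cells differ from Chgb cells and from each other, and each group enters 2 of them. Against Chgb cells, Ins cells had more Mapt and Tubb2a, while Gcg cells had less Tubb3. Set directly against Gcg cells, Ins cells had more Mapt, Tubb3 and Tubb2a.

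Mapt had 347 and 366 CPM in Ins cells, against 56.6 and 59.7 CPM in Chgb cells (log2 fold change 2.70 ± 0.30 SE, edgeR adjusted p = 1.98e-09). The 2 groups were separated by a wide gap, and the libraries agreed closely within each. Against the 26.2 and 41.6 CPM of Gcg cells the log2 fold change was 3.39 ± 0.40 (SE, edgeR adjusted p = 1.80e-08). A Mapt UMI was found in 53.3% and 50.5% of Ins cells without thinning and in 20% and 28.8% with it, against thinned shares of 3.45% and 1.75% in Gcg cells and 0 of 7 and 3.51% in macrophages. Of the 66 Mapt UMIs in Ins cells of library 1, the highest cell held 8. Mapt was present at every insulin level, with 430 and 333 CPM in cells of 10 to 49 insulin UMIs, 148 and 543 CPM in those of at least 50 but under 150, and 425 and 235 CPM in those of 150 or more. The libraries gave no common order over these bins.

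Tubb2a had 295 and 163 CPM in Ins cells, against 91.2 and 95.1 CPM in Chgb cells (log2 fold change 1.29 ± 0.29 SE, edgeR adjusted p = 0.00461). With DESeq2 the adjusted p was 0.0832. Against Gcg cells, at 78.6 and 77.3 CPM, its log2 fold change was 1.52 ± 0.37 (SE, edgeR adjusted p = 0.00874), and after thinning the adjusted p was 0.0937. Against Chgb cells, library 1 alone gave 1.68 and library 2 alone 0.77 on the log2 scale, and both Ins values lay above every value in Chgb and Gcg cells. Macrophages also carried Tubb2a, at 217 and 145 CPM, so they give no background for this gene.

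Tubb3 had 158 and 204 CPM in Ins cells, against 26.2 and 35.7 CPM in Gcg cells (log2 fold change 2.58 ± 0.44 SE, edgeR adjusted p = 5.85e-05). The Gcg level rests on 3 and 6 UMIs. In thinned cells a Tubb3 UMI was found in 11.1% and 18.9% of Ins cells, against 0 of 29 and 1 of 57 Gcg cells, and the Gcg share was not above that of macrophages. Against Chgb cells, at 97.5 and 128 CPM, Gcg cells were lower in Tubb3 (log2 fold change -1.81 ± 0.47 SE, edgeR adjusted p = 0.0337). That call was lost with DESeq2 (adjusted p = 0.177), without library as a block (edgeR adjusted p = 0.0703), after thinning (0.0961) and without cycling cells (0.0702). Ins cells stood above Chgb cells in both libraries without passing (log2 fold change 0.77, edgeR adjusted p = 0.190). Across the groups, Tubb3 in Ins cells overlapped that in Neurog3 cells, while Chgb cells lay below Ins cells with no overlap. Gcg and Spp1 cells were lowest, and no order is read between them, since their thinned shares were not above that of macrophages.

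In Gcg cells against Chgb cells, 1 of 8 members was called lower and none higher, beside 1.09% of all genes called, 0.543% in each direction. In Ins cells against Chgb cells, 2 of 8 were called higher and none lower, beside 2.33% of all genes called, 1.57% higher and 0.761% lower. In Ins cells against Gcg cells, 3 of 8 were called higher and none lower, beside 2.73% of all genes called, 1.66% higher and 1.08% lower. The median log2 fold change over the 8 members was -0.26, 0.55 and 0.40 in these comparisons, in that order, beside -0.02, -0.02 and 0.02 over all genes.

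Map1b did not pass in any of the 3. It had 442 and 570 CPM in Ins cells and 436 and 488 CPM in Gcg cells, beside 610 and 637 CPM in Chgb cells, and was found in 33.3% and 34.2% of thinned Ins cells and in 31.0% and 29.8% of thinned Gcg cells. The log2 difference between Ins and Gcg cells was 0.20, with an approximate 95% interval of -0.20 to 0.59. Stmn1 stayed low in both, at 31.6 and 35.6 CPM in Ins cells and 26.2 and 53.5 CPM in Gcg cells. Dcx had 57.9 and 99.2 CPM in Ins cells and 43.6 and 65.4 CPM in Gcg cells, and Tubb2b had 26.3 and 45.8 CPM in Ins cells and 61.1 and 23.8 CPM in Gcg cells. Chgb, Ins and Gcg cells overlapped in Dcx and Stmn1.

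The remaining stathmins were scarce. Stmn2 lay between 15 and 47.2 CPM in the 5 tested groups, on 5 to 15 UMIs per group and library, and no neighbouring groups in its order were apart in both libraries. Stmn3, a neuronal relative of Stmn2, had 3 and 4 UMIs in Ins cells (15.8 and 10.2 CPM), 1 and 3 in Chgb cells and 1 and 2 in Spp1 cells. It had no UMI in Neurog3, Neurog3/Chgb or Gcg cells. A count of 0 in 113 and 180 Neurog3 cells allows a share of cells with a UMI of up to 2.65% and 1.67% by the limit of 3 counts of the total, and the 95% exact binomial interval reaches 3.21% and 2.03%, so a difference in Stmn3 was not detectable at this depth.

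Stmn1 and tubulins are known to rise in dividing cells, so Spp1 cells with 3 or more UMIs of 12 cell cycle genes (38 and 76 cells, 36.2% and 36.4% of the group) were set against the other Spp1 cells. Stmn1 was higher in the cycling cells, with 412 and 567 CPM, against 276 and 181 CPM in other Spp1 cells (log2 fold change 1.14 ± 0.27 SE, edgeR adjusted p = 0.0195). It was the 1 member called of 8, beside 0.841% of the 9396 genes tested called higher and 0.0426% lower. Library 1 alone gave 0.57 and library 2 alone 1.65. The call was lost without library as a block (edgeR adjusted p = 0.0982), with DESeq2 (0.472) and after thinning (0.0863). Cycling cells were deeper, with a median of 4293 and 3012.5 UMIs against 3297 and 2439 in other Spp1 cells, and the part of depth in the split was not tested.

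Tubb2a had 183 and 164 CPM in cycling Spp1 cells, against 96.4 and 76.2 CPM in other Spp1 cells, higher in both libraries but not past the test (log2 fold change 1.02, edgeR adjusted p = 0.222). It passed with thresholds per 3000 UMIs (log2 fold change 1.35, edgeR adjusted p = 0.0140). Dcx had 85.8 and 123 CPM in cycling Spp1 cells and 131 and 124 CPM in the others (edgeR adjusted p = 0.927). The same split among Neurog3 cells, with 26 and 28 cycling cells and no test, gave Stmn1 at 548 and 439 CPM in cycling cells and 442 and 289 CPM in the others. There Map1b lay at 74.7 and 115 CPM in cycling cells and 258 and 319 CPM in the others, and Tubb3 at 149.5 and 146 CPM and 266 and 214 CPM. With the cells called cycling left out, Stmn1 in Chgb cells against Neurog3 cells had a log2 fold change of -2.99 (edgeR adjusted p = 2.72e-10), beside -2.97 with them. Since the cycling call uses raw UMIs, cycling cells of low depth can remain. The part of cycling in this fall was not tested.

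The isotypes were also taken as shares of all tubulin UMIs, since dimers form from whichever alpha- and beta-tubulins a cell makes. Tubb3 made up 1.03% and 1.01% of beta-tubulin UMIs in Spp1 cells, 16.4% and 16.1% in Neurog3 cells, 9.17% and 13.8% in Chgb cells, 8.85% and 14.0% in Ins cells and 2.78% and 3.90% in Gcg cells. In the few Neurog3/Chgb cells it was 48.3% (95% exact binomial interval 29.4% to 67.5%, 14 of 29 UMIs) and 20% (9.58% to 34.6%, 9 of 45). Among the 5 tested groups, Tubb2a had its highest share in Ins cells, 16.5% and 11.2%, beside 8.58% and 10.2% in Chgb cells, 7.93% and 6.14% in Spp1 cells and 8.33% and 8.44% in Gcg cells. The exact binomial intervals of Ins and Chgb cells were apart in library 1 (12.7% to 20.9% and 5.82% to 12.1%). In library 2 they overlapped (8.72% to 14.1% and 7.51% to 13.5%). Tubb5, the most abundant beta-tubulin in the 5 tested groups, made up 71.2% and 73.2% in Spp1 cells, 59.5% and 61.9% in Neurog3 cells and 44.8% and 44.1% in Ins cells. The whole beta-tubulin pool lay at 1689 and 1827 CPM in Spp1 cells, 1401 and 1256 CPM in Neurog3 cells, 1063 and 929 CPM in Chgb cells, 1783 and 1455 CPM in Ins cells and 943 and 916 CPM in Gcg cells.

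On the alpha-tubulin side, Tuba1a, the isotype of neurons, made up 3.04% and 2.60% of the pool in Spp1 cells, 8.38% and 18.1% in Neurog3 cells, 48.4% and 61.4% in Chgb cells, 61.2% and 59.7% in Ins cells and 38.2% and 36.4% in Gcg cells. Its share was thus highest after the stage at which the share of Tubb3 was highest among the tested groups. Tuba1a and Tuba1b have near-identical coding sequences and both overlap the annotated gene Gm49450 on the same strand, so the split between them is uncertain.

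**Figure D5:**
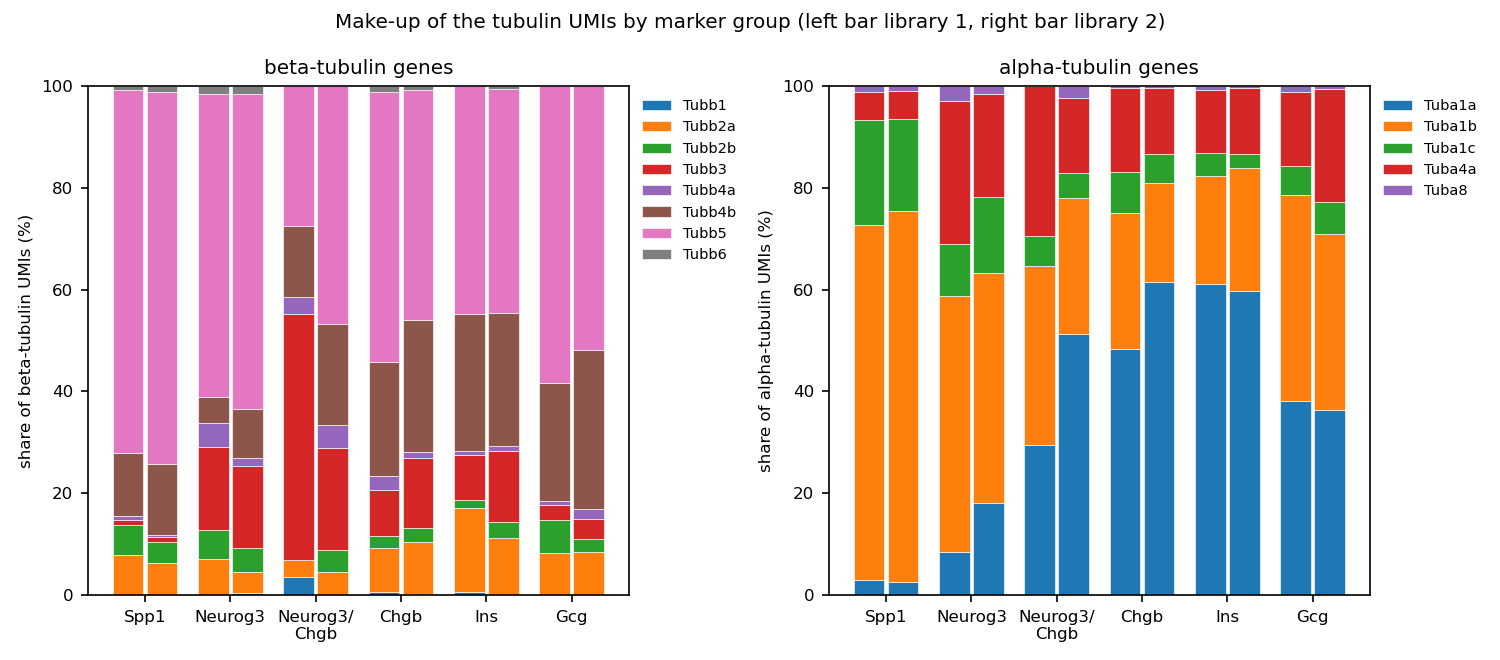
Make-up of the beta-tubulin and alpha-tubulin UMIs (percent of the pool, linear axis from 0 to 100) by marker group, left bar library 1 and right bar library 2. Tubb3 makes up 1.03% and 1.01% of beta-tubulin UMIs in Spp1 cells and 16.4% and 16.1% in Neurog3 cells, and Tuba1a makes up 3.04% and 2.60% of alpha-tubulin UMIs in Spp1 cells and 61.2% and 59.7% in Ins cells.

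The wider pathway was followed in 130 genes in 5 lists (other tubulins, microtubule-associated proteins, severing, modification and folding factors, transport motors, and cytoskeletal and RNA-binding genes shared with neurons), of which 105 were tested. In Neurog3 cells against Spp1 cells, 15 were called higher and 4 lower, and 9 of the 15 came from the 18 tested neuron-shared genes. Over all genes tested the shares were 3.95% higher and 3.47% lower. Among the 9 neuron-shared genes were Elavl4, a neuronal RNA-binding protein (log2 fold change 1.92 ± 0.46 SE, edgeR adjusted p = 0.00414), and Dpysl5, a collapsin response mediator (1.26 ± 0.30, adjusted p = 0.00393). The median log2 fold change of that list was 0.91, beside -0.04 over all genes. Of the 9 tested other tubulins, 3 were called higher (Tuba1a, Tuba4a and Tubb4a). The 4 that were lower were the broadly expressed tubulins Tuba1b (-1.53), Tuba1c (-1.51), Tubb4b (-1.27) and Tubb5 (-0.67). Tubb3 thus rose in Neurog3 cells while these 4 fell. In cycling Spp1 cells against the others the same 4 tubulins were higher, by 1.81 for Tuba1b, 2.24 for Tuba1c, 1.88 for Tubb4b and 1.68 for Tubb5, of 5 genes called higher and 0 lower among 93 tested, beside 0.841% of all genes higher and 0.0426% lower. Cycling cells made up 23.0% and 15.6% of Neurog3 cells, against 36.2% and 36.4% of Spp1 cells, and the part of this difference in the tubulin levels was not tested.

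In Chgb cells against Neurog3 cells, 8 of the 105 genes were called higher and 7 lower, beside 4.49% and 5.89% of all genes. Tuba1a was higher (log2 fold change 2.48 ± 0.25 SE, edgeR adjusted p = 4.51e-11), as were Uchl1, a neuronal deubiquitinase (2.15), Hdac6, a tubulin deacetylase (1.64), and the microtubule end-binding genes Mapre2 (1.30) and Mapre3 (1.13). The actin-binding thymosin gene Tmsb4x (-2.63) and Marcksl1 (-1.87) were lower, as was Stmn1. Of the 18 tested neuron-shared genes, 2 were called higher here and 5 lower, with Dpysl5, Tmsb4x and Marcksl1 among the lower ones. The median log2 fold change of that list was -0.19, beside 0.01 over all genes. None of the 26 tested transport motors was called in either direction in that comparison.

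In Ins cells against Chgb cells, 5 of the 105 were called higher and 2 lower, beside 1.57% and 0.761% of all genes. The 4 tubulins among them, Tuba1a (1.02), Tubb4b (0.91), Tuba1b (0.89) and Tubb5 (0.64), were higher together with Tubb2a. The other gene called higher was the neuron-shared gene Nnat, at 4587 and 4677 CPM in Ins cells against 497 and 571 CPM in Chgb cells. The 2 that were lower were also neuron-shared genes, Elavl4 (-1.60) and Marcks (-1.34). None of the 24 tested microtubule-associated proteins of the list was called in that comparison. In Ins cells against Gcg cells 2 were called higher and 2 lower, beside 1.66% and 1.08% of all genes. Tuba1a (1.24) and the imprinted gene Nnat (4.62) were higher, and Marcks (-0.88) and Tmsb4x (-1.95) were lower. In Gcg cells against Chgb cells 2 were called higher and 1 lower, beside 0.543% of all genes in each direction. Tuba1b (1.06) and Tmsb4x (1.69) were higher, and Nnat (-1.42) was lower.

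To place each member, the Pearson correlation of log2(CPM + 10) was taken over the 10 sums (5 groups in 2 libraries). These sums share libraries and groups. The 3 closest of the tested genes were noted, leaving out symbols that start with Gm and a digit or end in Rik. For Tubb3 these were Insm1, a zinc-finger factor of endocrine progenitors (r = 0.94), Gpsm1 (0.93) and Pdap1 (0.91). Insm1 averaged 1241 CPM in Neurog3 cells and 86.6 CPM in Spp1 cells. Map1b went with Baiap3, a regulator of dense-core vesicles (0.99), Syt7, a calcium sensor of exocytosis (0.97), and Dnmt3a (0.97). Mapt went with Sytl4, granuphilin of insulin granules (0.99), Aqp4 (0.98) and P4hb (0.98). Stmn1 went with the ribosomal protein genes Rps3 (0.98), Rpsa (0.98) and Rplp0 (0.97). Tubb2a went with Tmem167 (0.95), Rexo2 (0.94) and Slc2a2 (0.91), Tubb2b with Cdc42ep5, Fn1 and Mcm2 (0.92 to 0.94), Dcx with Hnrnpab, Trp53 and Rtn4 (0.92 to 0.93), and Stmn2, on few UMIs, with Mum1, Acss3 and Ms4a7 (0.91 to 0.94).

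Among the members themselves, Stmn1 and Dcx were the most alike (r = 0.89), followed by Mapt and Tubb2a (0.80). Map1b ran opposite to Tubb2b (-0.78) and Stmn1 (-0.75), and the r of Tubb3 and Stmn1 was -0.07.

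Within single cells, members with like levels could be counted together. In Neurog3 cells 15 and 35 cells held both Tubb3 and Map1b, beside 15 and 22.0 from the product of the separate shares. Deeper cells hold more of any gene, which raises such counts. In Ins cells 17 and 26 cells held both Mapt and Tubb2a, beside 14.4 and 22.7. In Chgb cells 2 and 9 cells held both Tubb3 and Stmn1, beside 1.24 and 5.47. Other pairs went the other way. Tubb3 and Map1b were held together by 8 and 34 Ins cells, beside 12.4 and 34.1, and Map1b and Stmn1 by 18 and 30 Neurog3 cells, beside 22.0 and 31.5. Counted over all 9 genes in thinned cells, Ins cells held the most members per cell of the 5 tested groups (mean 1.13 and 1.23), followed by Neurog3 cells (0.92 and 0.85) and Chgb cells (0.815 and 0.884), with Gcg cells (0.552 and 0.667) and Spp1 cells (0.676 and 0.550) lowest. The 10 and 16 Neurog3/Chgb cells held 1.10 and 0.938. No cell held all 9; the most in an Ins cell was 7, without thinning.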

How the data were processed

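The deposited files hold raw UMI counts per gene and cell for 2 inDrop libraries of sorted E14.5 mouse pancreas cells, made by the authors on the mouse build GRCm38, per the submitters' processing notes. The aligner, the counting program and any use of strand were not given in the sources used here. Barcodes were kept from 1000 UMIs and 500 detected genes upward, if no more than 20% of UMIs were mitochondrial (528 of 535 and 1081 of 1100 barcodes). Doublets were called per library with Scrublet in scanpy 1.11.5 (13 and 11 cells) and removed, leaving 515 and 1070 cells with a median of 3225 and 2847.5 UMIs.

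Cells were grouped by raw UMIs in a fixed order: insulin (Ins1 and Ins2 together at least 10), Gcg (at least 5), Neurog3 with Chgb (at least 3 each), Chgb (at least 3), Neurog3 (at least 3), 8 macrophage markers (at least 5), 8 acinar markers (at least 10) and Spp1 (at least 3). Cells with both hormones (1 and 1) were not used. Counts were summed per group and library. Groups of at least 20 cells in each library entered a single edgeR 4.0.16 quasi-likelihood fit with TMM scaling, the filterByExpr filter and library as a block, since the same 2 libraries hold every group. A second fit split the Spp1 cells by the cell cycle. The genes that define the groups were left out of the tests. An adjusted p under 0.05 was called, with Benjamini-Hochberg adjustment over 11044 genes (9396 in the second fit). Fold changes per library used CPM plus 1. Approximate 95% intervals of fold changes were taken from the SE and a normal distribution. Cells of 1 library are not replicates, and intervals on shares are exact Clopper-Pearson intervals.

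The members and gene lists were chosen with earlier results of these data known. The text names the 9 members, per comparison up to 12 listed genes with the lowest adjusted p and the same sign in both libraries, and per member the 3 genes of highest correlation. The last of these rules left out Gm and Rik symbols. Some genes that these rules select are not reported here. Alternatives were RLE scaling, no filter, DESeq2 1.42.0, no block, cells thinned to 1000 UMIs, doubled thresholds, thresholds per 3000 UMIs, no cycling cells, each library alone and, added after seeing the data, leaving out cells with 3 or more UMIs of the neuron and neural crest list. The edgeR steps were tested on simulated counts. Promoter windows are from RefSeq.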

Additional observations from a re-analysis of the deposited data

Results flagged for a closer look

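Map1b was also present in the 297 cells that met no marker rule and entered no comparison, where its level averaged 376 CPM (334 in library 1 and 419 in library 2), against 109 and 30.3 CPM in macrophage cells. It was flagged as a signal in cells the comparisons do not use. These cells held less RNA, with a median of 2402 and 2518 UMIs, and together carried markers of several cell types. They held Neurod1, an endocrine transcription factor, at 256 and 315 CPM and Chga, a granule protein, at 296 and 554 CPM. The mesenchyme list summed to 730 and 2553 CPM in them, against 62.0 to 238 CPM in the 6 groups, the endothelium list to 85.2 and 494 CPM, and the erythroid list to 460 and 10.8 CPM. Which of these cells held the Map1b UMIs was not tested.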

How the results depend on the processing

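No call on a member changed its direction under any alternative. Map1b and Tubb3 in Neurog3 cells against Spp1 cells, Map1b and Stmn1 in Chgb cells against Neurog3 cells, and Mapt in Ins cells against either Chgb or Gcg cells were called under every alternative that gave a test. So was Tubb3 in Ins cells against Gcg cells. The members that lost a call did so 6 times under DESeq2, 6 times after thinning, 3 times without cycling cells, 2 times without the block, and 1 time each with doubled thresholds and with thresholds per 3000 UMIs. The numbers of genes called moved by more than 1.5 times as follows, in the order Neurog3 against Spp1, Chgb against Neurog3, Gcg against Chgb, Ins against Chgb, Ins against Gcg and cycling against other Spp1 cells, where the main counts were 819, 1146, 120, 257, 302 and 83. DESeq2 gave 267, 544, 45, 97, 138 and 40. Thinning, which left 3967 genes to test (3189 in the second fit), gave 346, 501, 34, 85, 93 and 26. Without the replicate block the counts were 63 for Gcg against Chgb, 162 for Ins against Chgb and 201 for Ins against Gcg. Thresholds per 3000 UMIs gave 141 for cycling against other Spp1 cells. Without the filter on low counts, the Gcg against Chgb calls were 48 higher and 103 lower in place of 60 and 60, with the median of all genes at -0.21 on the log2 scale. The cause of these shifts was not tested. Each library alone gives values with no test, since no residual degrees of freedom remain. With doubled thresholds the cycling comparison was not run, as fewer than 20 cycling cells were left in library 1. Depth limits Stmn3, Stmn2 and every statement on the Neurog3/Chgb cells.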
